A study of Mus musculus with 16 samples.

Results

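The genes described here encode the ATP-binding cassette (ABC) proteins of subfamilies A to G, the SLC22 carriers of organic ions and the organic anion transporting polypeptides (OATP, gene prefix Slco). Their RNA was measured in the small intestine of Hnf4a knockout and wildtype mice. The genes were chosen by symbol, with earlier results of these data known. Every array probe named Abca to Abcg, Slc22a or Slco with a number was taken. This gave 124 of the 25697 probes, for 75 genes by the array's symbols (47 ABC, 15 SLC22 and 13 Slco genes). RNA from 16 mice was measured on Illumina bead arrays, 1 array per mouse. The 8 knockout mice (KO) carried VillinCreERT2, a tamoxifen-inducible Cre recombinase under the villin promoter, and loxP-flanked Hnf4a alleles, and their genotype is labelled Hnf4a-/-. The 8 wildtype mice (WT) lacked the Cre transgene. Their genotype label reads Hnf4a+/+, whereas the growth protocol gives them loxP-flanked alleles too, a conflict left as it is. All 16 mice were gavaged with 1 mg tamoxifen daily for 5 days, irradiated 3 weeks later with 14 Gy to the whole body, and killed 96 hours after that. Unirradiated mice were not analysed here, so every comparison is between irradiated tissues. The villin promoter directs Cre to the intestinal epithelium, and other cell types of the tissue keep their Hnf4a. The sources used here give neither the age of the mice nor the stretch of small intestine taken.

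ABC transporters use ATP to move lipids, conjugates, drugs, haem or peptides across membranes, and in the gut many of them return absorbed compounds to the lumen or pass them on to the blood. SLC22 and OATP proteins are carriers without an ATPase, and bring organic cations, carnitine, organic anions, hormones and bile salts into cells. HNF4A is a nuclear receptor that binds DNA as a dimer and maintains the expression of absorptive genes in enterocytes and of transporter genes in liver.

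Array values are log2 intensities after background correction and quantile normalization, and a difference is KO minus WT. A level on this scale belongs to 1 probe and was not set against that of another probe. A gene was tested when a probe of it was detected (detection p under 0.05, against the negative control beads of its array) on at least 6 of 16 arrays, and the brightest such probe stood for the gene. "Higher", "lower", "rose" and "fell" refer to an adjusted p under 0.05 in limma's moderated test over all 10143 genes tested. In whole tissue, fewer cells of a type and less RNA per cell cannot be told apart.

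Hnf4a itself had a lowest, median and highest value of 10.17, 10.50 and 10.71 in KO tissue, against 11.91, 12.24 and 12.50 in WT tissue, so the groups did not overlap (difference -1.75, SE 0.10, limma adjusted p = 2.06e-09). Between 46.9% and 53.1% of probes were detected on KO arrays, against 48.3% to 52.2% on WT arrays. A probe of the female-specific transcript Xist was detected on KO array 8 alone, and a probe of the Y-linked Ddx3y on all 16 arrays. Markers of the labelled tissue were present: the epithelial list had 10 tested members, of which 1 was higher and none lower, with a mean level of 11.57 to 11.90 on KO arrays and 11.61 to 11.90 on WT arrays. Macrophage and dendritic cell markers were higher for 13 of 14 tested members, and the sum of their linear intensities was 33570 to 64780 on KO arrays against 20940 to 30280 on WT arrays. Endothelial markers were higher for 8 of 12 (summed intensity 8179 to 14160 in KO against 4898 to 8929 in WT tissue) and fibroblast markers for 5 of 9 (14700 to 35850 against 11790 to 21180). Smooth muscle markers had 0 of 7 past limma's threshold and 0 at an unadjusted p under 0.05, with a summed intensity of 12770 to 59070 in KO against 25540 to 57630 in WT tissue. Adipocyte markers had 1 of 7 higher (1922 to 51200 against 1413 to 17350). Of 10 hepatocyte and pancreas markers 1 was tested, and it was not past the threshold. What part these other cell types have in the transporter differences was not tested.

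The promoter windows of 3 genes are shown first, because Abcc2 and Slc22a18 are the genes with a window in the sequence table whose values in the genotypes did not overlap, and because Abcg5 and Abcg8 face each other over 1 stretch of DNA. Windows run from 250 bases before to 50 bases after a start site of RefSeq on build GRCm38.p6, written 5′ to 3′ on the strand of the gene. In the first and second sequence, capitals mark the 50 bases from the start site on. In the third, capitals mark the 209 bases that the Abcg5 window shares with the facing window of Abcg8 on the opposite strand. The windows lie at chr19:43782058-43782357 (plus strand), chr7:143473539-143473838 (plus strand) and chr17:84682962-84683261 (minus strand).
Abcc2: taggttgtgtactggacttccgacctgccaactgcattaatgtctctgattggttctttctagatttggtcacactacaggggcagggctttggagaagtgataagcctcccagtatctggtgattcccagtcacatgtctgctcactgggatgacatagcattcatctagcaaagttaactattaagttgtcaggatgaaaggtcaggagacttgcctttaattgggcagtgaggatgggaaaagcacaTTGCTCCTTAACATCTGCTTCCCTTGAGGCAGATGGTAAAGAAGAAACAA
Slc22a18: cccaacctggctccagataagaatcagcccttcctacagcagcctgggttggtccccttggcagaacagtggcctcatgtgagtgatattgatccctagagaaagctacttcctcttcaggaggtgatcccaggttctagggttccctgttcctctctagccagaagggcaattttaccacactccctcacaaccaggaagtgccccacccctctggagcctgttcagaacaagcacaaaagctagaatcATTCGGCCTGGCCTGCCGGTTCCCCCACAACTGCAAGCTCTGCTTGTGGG
Abcg5: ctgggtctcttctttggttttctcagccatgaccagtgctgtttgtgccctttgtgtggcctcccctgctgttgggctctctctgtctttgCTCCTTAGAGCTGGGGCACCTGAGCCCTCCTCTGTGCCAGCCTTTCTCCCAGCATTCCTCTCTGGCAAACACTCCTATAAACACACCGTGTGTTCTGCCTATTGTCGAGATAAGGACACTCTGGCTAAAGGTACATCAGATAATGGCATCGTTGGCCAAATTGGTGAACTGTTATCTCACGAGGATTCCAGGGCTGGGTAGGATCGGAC
The 2 spellings of an HNF4-type element, CAAAGTCCA and CAAAGGTCA, were searched on both strands of the windows of the 28 tested genes that the table holds. At least 1 of them stands in 0.95% of all 32851 windows. None of the 8 windows of the 6 lower genes in the table holds either, nor do the 2 windows of the higher genes. Of the 28 windows of the other tested genes, 1 window of Abcd3 holds CAAAGTCCA, 13 bases after the start site. These letters describe the windows only and say nothing of binding elsewhere.

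Detection divided the genes before any comparison of genotypes. Of the 124 probes, 53 were detected on no array, 13 on 1 to 5 arrays and 58 on at least 6, while 40 were detected on all 16. The share that passed the limit of 6 arrays was 46.8%, beside 52.4% of all probes on the array. By gene, 40 of 75 were tested (28 of 47 ABC, 7 of 15 SLC22 and 5 of 13 Slco genes), 8 had no probe beyond 5 arrays, and 27 had no detected probe at all. The 8 genes below the limit were Abca1, Abca4, Abca9, Abcc1, Abcd2, Slc22a2, Slc22a4 and Slc22a13. Genes without a detection included the renal organic anion carriers Slc22a6, Slc22a8 and Slc22a12, the hepatic OATPs Slco1a1, Slco1a4 and Slco1b2, the bile salt export pump gene Abcb11 and the biliary phosphatidylcholine floppase gene Abcb4. The others were Abca5, Abca6, Abca8b, Abca12, Abca13, Abca14, Abca16, Abcb1a, Abcb10, Abcc8, Abcc12, Abcg3, Slc22a3, Slc22a14, Slco1a6, Slco1c1, Slco4c1, Slco6b1 and Slco6c1. For 45 of the 75 genes the array has a single probe, and an undetected probe shows only that this probe was not above background. Abca1, which exports cholesterol to apolipoprotein A-I, and Abcb1a, one of the mouse genes for the drug pump P-glycoprotein, are among these single-probe genes.

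**Figure D1:**
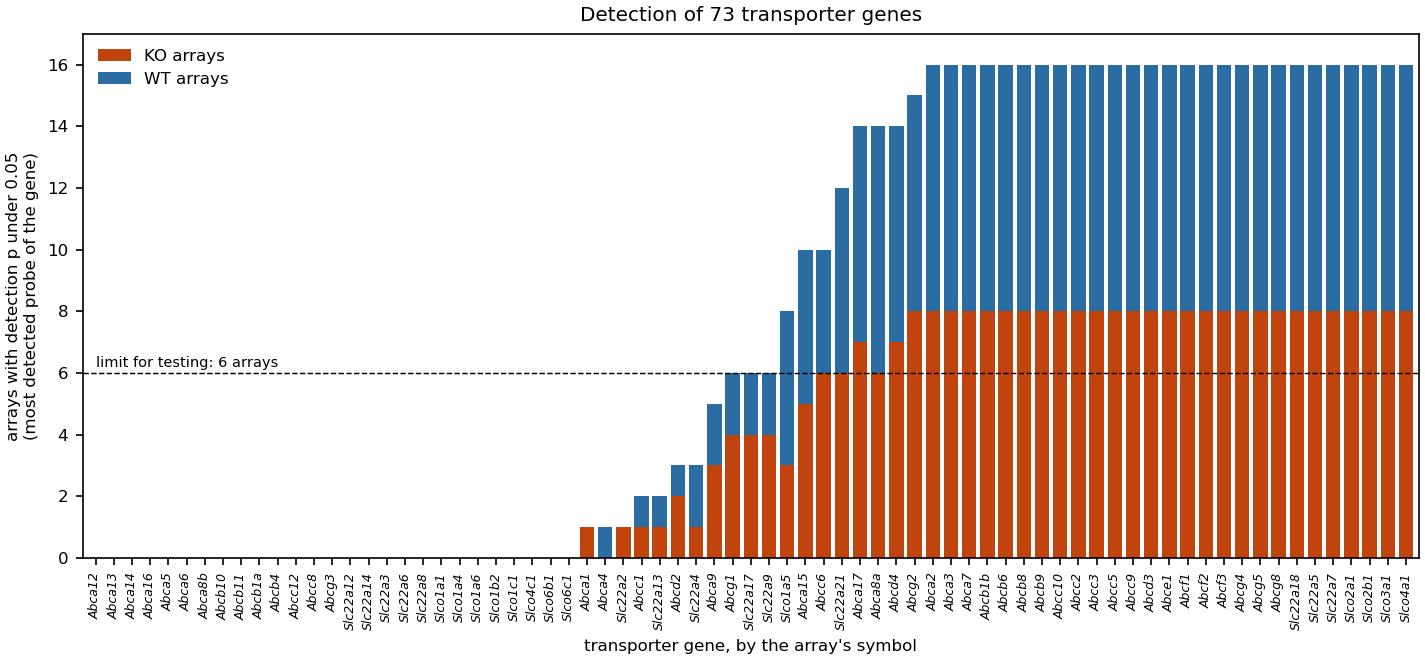
Number of arrays (y axis) on which the most detected probe of each of 73 transporter genes (x axis) had a detection p under 0.05, with KO arrays in orange and WT arrays in blue. A block of 27 genes stands at 0, 27 genes reach 16 arrays, and the dashed line marks the 6 arrays needed for testing.

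Of the 40 tested genes, 9 were lower and 2 were higher in KO tissue. The 11 that passed make up 27.5% of the genes, close to the 30.7% called among all genes tested. Lower genes were 22.5% of the members, against 17.2% of all genes, and higher genes 5% against 13.5%. The median difference was -0.12 over the members and -0.02 over all genes tested, and the difference was negative for 65% of members and 53.2% of all genes. The median size of a difference regardless of sign was 0.20 over the members and 0.24 over all genes. As a set the transporters thus differed about as often and as much as other genes. The members are described next by substrate.

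For 4 members, Abcc2, Abcb8 and Slc22a18 among them, every KO array lay below every WT array. That is 10% of the members, beside 6.90% of all genes tested without overlap in either direction. A called decrease of at least 2-fold was seen for 2 members, Abcc2 among them, beside 1.47% of all genes tested. No member had a called increase of that size, beside 2.52% of all genes tested. All 11 called members had the same sign on both slides, which each hold 4 arrays per genotype. The genes were chosen from both slides together, so this is no independent repeat.

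**Figure D2:**
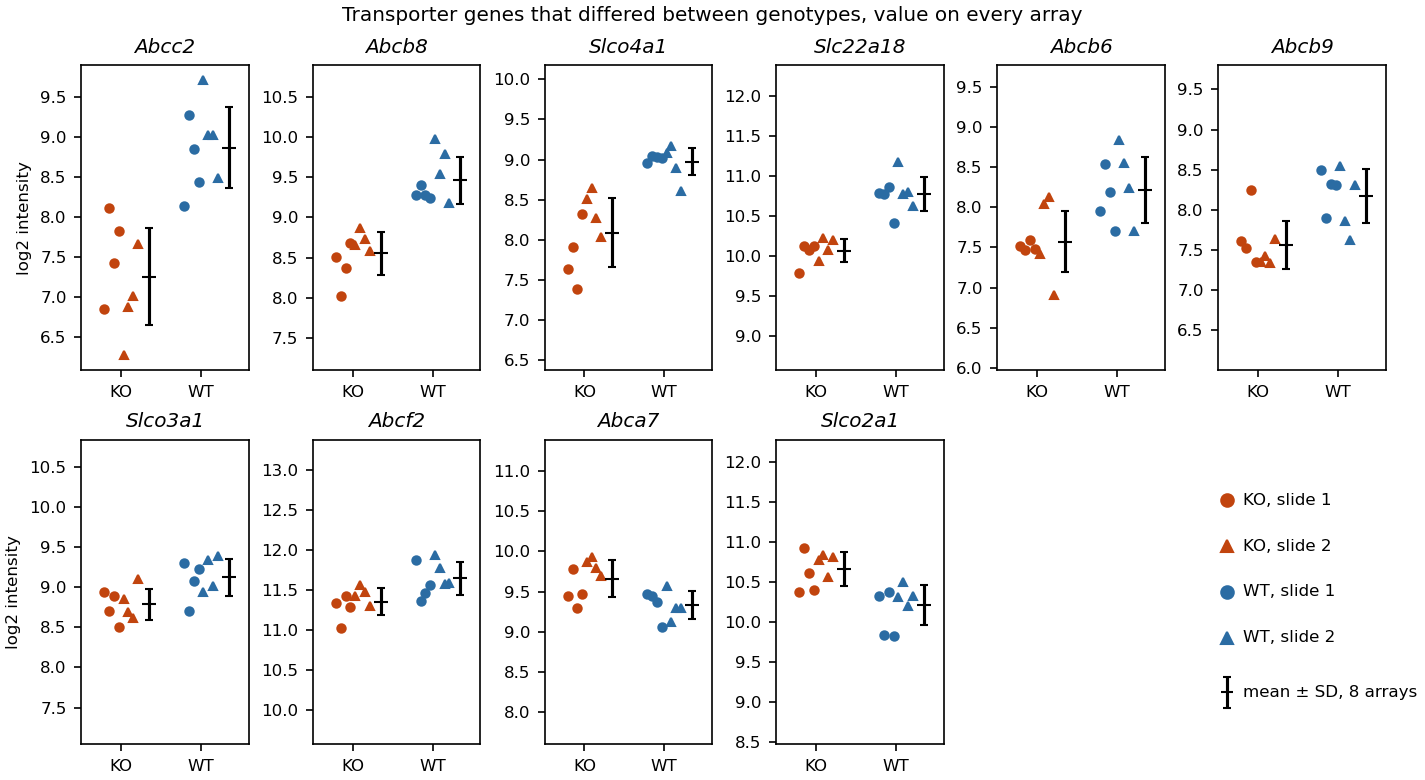
Log2 intensity (y axis, range of equal length in each panel) of 10 called transporter genes on each of the 8 KO (orange) and 8 WT (blue) arrays, circles for slide 1 and triangles for slide 2, with mean and SD in black. Abcc2, Abcb8 and Slc22a18 show a gap between the genotypes, and the other 7 genes overlap.

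Among the carriers of organic cations and carnitine, the OCT2 gene Slc22a2 was detected on 1 array, a KO array, and the OCT3 gene Slc22a3 on none, so neither was compared. The carnitine carrier gene Slc22a5 (OCTN2) differed by -0.17 with a 95% interval of -0.43 to 0.09, and 2 further Slc22a5 probes by -0.10 and -0.35, none past the threshold. Slc22a21 (Octn3, a carnitine carrier described in mouse) differed by -0.13 (95% interval -0.44 to 0.19). The ergothioneine carrier gene Slc22a4 was detected on 3 arrays and was not tested. In the carnitine shuttle list, which takes acyl groups into mitochondria, 1 of 6 tested genes passed: the palmitoyltransferase gene Cpt2 fell by 0.39. Slc47a1 encodes MATE1, an exporter of organic cations, and has no symbol under the rule. It had 5.75, 7.21 and 8.92 as lowest, median and highest value in KO tissue, against 7.82, 8.82 and 10.30 in WT tissue, groups that overlapped (difference -1.57, SE 0.46, limma adjusted p = 0.0163).

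Of the ABC genes for efflux of organic anions and conjugates, 1 of 5 tested fell. Abcc2 encodes MRP2, the apical pump for glucuronide, glutathione and bilirubin conjugates. It had 6.28, 7.22 and 8.11 as lowest, median and highest value in KO tissue, against 8.14, 8.93 and 9.71 in WT tissue. The groups met almost edge to edge without overlapping, and KO tissue held 32.8% of the WT signal (difference -1.61, SE 0.26, limma adjusted p = 0.000230). The slides gave -1.12 and -2.10, and on slide 1 alone the adjusted p was 0.0642. A second Abcc2 probe was detected on 4 arrays and was not tested.

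Abcc3 encodes MRP3, the basolateral counterpart of MRP2. Its lowest, median and highest values were 9.29, 9.55 and 10.45 in KO tissue, against 9.45, 10.07 and 10.71 in WT tissue, groups that overlapped over most of their range. The difference of -0.48 (95% interval -0.88 to -0.09) had an adjusted p of 0.0613 by limma. It passed the threshold without KO array 7 (adjusted p = 0.0137), without WT array 8 (0.0228) and with 75th percentile scaling (0.0394). Abcc5, which exports cyclic nucleotides, differed by 0.08 (95% interval -0.23 to 0.40), Abcc10 by 0.00162 and Abcc6 by 0.03. Each had an interval within a 2-fold change. The Abcc6 probe was detected on 6 KO and 4 WT arrays, so its interval does not bound the change in RNA. Abcc1 was detected on 2 arrays, and Abcc12 and Abcb11 on none.

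Both tested genes for multidrug efflux had positive differences that were not past limma's threshold, and 0 had an unadjusted p under 0.05. Abcb1b, a P-glycoprotein gene, differed by 0.34 (95% interval -0.10 to 0.77) and had 7.55, 8.07 and 9.09 as lowest, median and highest value in KO tissue, against 7.08, 7.68 and 8.17 in WT tissue. Abcg2, the breast cancer resistance protein that exports urate and dietary compounds at the brush border, differed by 0.17 (95% interval -0.23 to 0.56). These intervals do not show that the drug pumps were equal in the genotypes, and both lie above the difference of Abcc2. A list of xenobiotic and sterol sensing factors holds receptors for drugs, sterols and bile acids and a few partner or other transcription factors. Of 11 tested, 4 fell and none rose: the CAR gene Nr1i3 by 1.25, the LRH-1 gene Nr5a2 by 1.11, the PXR gene Nr1i2 by 0.89 and the RXR-beta gene Rxrb by 0.29. Nr1i3 was detected on 4 of 8 KO arrays and all WT arrays, and Nr5a2 on 3 KO and 7 WT arrays. Their KO means thus include arrays where the probe was not above background, and the size of these 2 differences is uncertain.

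The mitochondrial and haem-related ABC genes were both lower. Abcb8 encodes a mitochondrial inner membrane protein linked to iron export and to a potassium channel. It had 8.01, 8.62 and 8.87 as lowest, median and highest value in KO tissue, against 9.17, 9.34 and 9.98 in WT tissue. The groups did not overlap (difference -0.91, SE 0.14, limma adjusted p = 0.000127), and the slides gave -0.91 each. Another pair of Abcb8 probes differed by -0.86 and -0.74 and were called too.

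Abcb6, a porphyrin transporter of mitochondrial and other membranes, had 6.91, 7.49 and 8.13 in KO tissue, against 7.70, 8.21 and 8.84 in WT tissue. The groups overlapped between 7.70 and 8.13 (difference -0.65, SE 0.19, limma adjusted p = 0.0151). On slide 1 alone its adjusted p was 0.0785 and on slide 2 alone 0.165. Abcb10, a further mitochondrial member required in red cell precursors, was detected on no array. Of 8 tested enzymes of haem synthesis and breakdown, 4 fell and none rose. Among them were Uros at -0.61 and Alad at -0.42.

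The peptide transporter gene Abcb9 fell. Abcb9 is TAPL, which takes peptides into lysosomes. Its lowest, median and highest values were 7.34, 7.47 and 8.25 in KO tissue, against 7.62, 8.31 and 8.55 in WT tissue. KO array 3, at 8.25, lay far above the next KO array at 7.63 and among the WT values (difference -0.61, SE 0.15, limma adjusted p = 0.00629). The adjusted p was 0.00101 without KO array 3. Each slide alone lost the call (limma adjusted p = 0.128 on slide 1 and 0.0649 on slide 2). Another Abcb9 probe gave -0.60 and was called as well. The TAP genes, close relatives of Abcb9 that load peptides for MHC class I, went the other way. Tap1 had 7.96, 8.68 and 9.20 as lowest, median and highest value in KO tissue, against 6.62, 7.42 and 7.91 in WT tissue (difference 1.19, SE 0.20, limma adjusted p = 0.000288). Tap2 rose by 0.95 (limma adjusted p = 1.48e-05), also without overlap. On the same KO arrays the macrophage markers were higher, and their part in the TAP values was not tested.

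In the OATP class for bile salts, hormones and other anions, 2 of 4 tested genes fell. Slco4a1, a widely expressed thyroid hormone and organic anion carrier, had 7.39, 8.15 and 8.64 as lowest, median and highest value in KO tissue, against 8.61, 9.03 and 9.17 in WT tissue. A single KO array, number 6 at 8.64, reached above the lowest WT array, number 8 at 8.61 (difference -0.89, SE 0.16, limma adjusted p = 0.000521). The slides gave -1.20 and -0.58, and on slide 2 alone the adjusted p was 0.0588. Slco3a1, a carrier of prostaglandins, thyroxine and other anions, had 8.50, 8.78 and 9.10 in KO tissue, against 8.71, 9.16 and 9.39 in WT tissue. The groups overlapped over most of their range (difference -0.34, SE 0.11, limma adjusted p = 0.0277). This call was lost when any 1 of 5 arrays was left out (KO 4 or 7, WT 1, 6 or 8; adjusted p 0.0510 to 0.0556). Each slide alone lost it as well (limma adjusted p = 0.259 on slide 1 and 0.154 on slide 2). The 2 other Slco3a1 probes gave -0.48 and -0.11 and were not called.

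Slco2b1 encodes the OATP of the enterocyte that takes up sulfated steroids and drugs. It had 9.85, 10.87 and 11.63 as lowest, median and highest value in KO tissue, against 10.95, 11.07 and 11.63 in WT tissue. KO array 1 carried the highest and KO array 6 the lowest KO value, and 7 of 8 KO arrays lay below every WT array (difference -0.34, 95% interval -0.72 to 0.05, limma adjusted p = 0.173). Without KO array 1 the difference was -0.45 (adjusted p = 0.0395). Without KO arrays 1 and 6 together, a choice made after seeing the data, it was -0.31 (adjusted p = 0.0466). Of all 16 arrays, KO array 1 had the highest mean level of the adipocyte (11.51), fibroblast (11.12), macrophage and dendritic cell (10.77) and endothelial markers (9.32). Of the KO arrays, KO array 6 had the lowest of the same lists (6.92, 9.29, 9.72 and 8.54, in that order) and of the smooth muscle markers (9.58). The part of these cell types in the Slco2b1 values was not tested. Slco1a5 was detected on 3 KO and 5 WT arrays and differed by -0.06.

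The prostaglandin transporter gene Slco2a1 rose. It had 10.37, 10.69 and 10.93 as lowest, median and highest value in KO tissue, against 9.83, 10.32 and 10.50 in WT tissue. The groups overlapped between 10.37 and 10.50 (difference 0.45, SE 0.12, limma adjusted p = 0.00758). With 75th percentile scaling the difference was 0.35 and the call was lost (adjusted p = 0.0613). Slide 1 alone lost it too, with a difference of 0.49 (limma adjusted p = 0.139). Endothelial and macrophage markers were higher on the KO arrays as well, and their part in the Slco2a1 difference was not tested.

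Of 7 tested genes for export of sterols and phospholipids, 1 rose and none fell. Abca7, a relative of Abca1 that moves phospholipids and acts in phagocytosis, had 9.30, 9.73 and 9.94 as lowest, median and highest value in KO tissue, against 9.06, 9.33 and 9.57 in WT tissue. The groups overlapped (difference 0.33, SE 0.11, limma adjusted p = 0.0252). The slides gave 0.16 and 0.50, and slide 1 alone lost the call by a wide margin (limma adjusted p = 0.5256). Scaling to the 75th percentile ended the call too (adjusted p = 0.0766). The call was also lost when KO array 5, WT array 4 or WT array 6 was left out (adjusted p 0.0527, 0.0501 and 0.0515). Another Abca7 probe gave 0.42 and was not called.

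Abcg5 and Abcg8 encode the subunits of the sterol exporter that returns plant sterols and cholesterol to the gut lumen. The Abcg5 start site and the facing Abcg8 start site lie 109 bases apart on opposite strands in RefSeq, within the capitals of the third sequence above. RefSeq gives Abcg8 a further start site, whose window lies apart at chr17:84676052-84676351 (plus strand). Abcg5 had 10.85, 11.37 and 11.84 as lowest, median and highest value in KO tissue, against 10.88, 11.56 and 12.15 in WT tissue. Abcg8 had 8.48, 9.78 and 10.34 in KO tissue, against 9.47, 9.93 and 10.85 in WT tissue. KO array 5 was the lowest KO array for both genes, and WT array 2 the highest and WT array 1 the lowest WT array for both. The highest KO array differed, number 8 for Abcg5 and number 2 for Abcg8. The differences were -0.20 for Abcg5 (95% interval -0.56 to 0.16) and -0.41 for Abcg8 (-0.99 to 0.17), neither past the threshold.

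Abca3, the surfactant phospholipid transporter, differed by 0.17 (95% interval -0.04 to 0.37) and Abca2, its relative of myelin and lysosomes, by 0.12. Abcg4 differed by 0.17 and Abcg1, a cholesterol exporter of macrophages that was detected on 4 KO and 2 WT arrays, by 0.19. None of these 4 was past the threshold. In the cholesterol handling list 0 of 11 tested genes passed limma's threshold and 2 had an unadjusted p under 0.05, with a median of -0.04.

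The other classes held 1 called SLC22 gene and 1 called gene of the ABC proteins that do not transport. Slc22a18 lies in an imprinted cluster, and its substrate is not settled. Its lowest, median and highest values were 9.79, 10.10 and 10.23 in KO tissue, against 10.42, 10.79 and 11.18 in WT tissue. The groups did not overlap, and KO tissue held 61.1% of the WT signal (difference -0.71, SE 0.10, limma adjusted p = 6.38e-05). The slides gave -0.69 and -0.73. Its other probe, detected on 3 KO and 3 WT arrays, differed by -0.05 and was not called. Slc22a17, the lipocalin receptor gene of the same class, was detected on 4 KO and 2 WT arrays and differed by 0.08.

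Abcf2, 1 of the cytosolic ABC proteins tied to translation, had 11.02, 11.38 and 11.56 as lowest, median and highest value in KO tissue, against 11.36, 11.58 and 11.93 in WT tissue. The groups overlapped (difference -0.29, SE 0.10, limma adjusted p = 0.0340). The call was lost when any 1 of 6 arrays was left out (KO 2, 4 or 8, WT 1, 5 or 6; adjusted p 0.0550 to 0.0675). Neither slide alone kept it (limma adjusted p = 0.244 on slide 1 and 0.160 on slide 2). The 3 other Abcf2 probes gave -0.10 to -0.26 and none was called. Abcf1, a partner of initiation factor eIF2, differed by -0.21 at the brightest probe (limma adjusted p = 0.104). It passed without KO array 6 (adjusted p = 0.0405) and with 75th percentile scaling (0.0465). A dimmer Abcf1 probe fell by 0.39 (limma adjusted p = 0.00283 over all detected probes) and another gave -0.21. The ribosome recycling factor gene Abce1 differed by -0.16 and Abcf3 by -0.09.

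Of the ABCD genes, which serve peroxisomes and lysosomes, 0 of 3 passed limma's threshold and 1 had an unadjusted p under 0.05. Abcd3, the peroxisomal carrier of branched-chain and bile acid CoA esters, differed by -0.24 (95% interval -0.52 to 0.04). Abcd4, the lysosomal cobalamin exporter, had probes that parted at the threshold. The brighter had 5.92, 6.06 and 6.40 as lowest, median and highest value in KO tissue, against 5.91, 6.56 and 7.17 in WT tissue (difference -0.44, limma adjusted p = 0.0567). It passed when KO array 8 or WT array 4, 7 or 8 was left out (adjusted p 0.0210 to 0.0498). The dimmer, detected on 3 KO and 8 WT arrays, gave -0.73 (SE 0.19, limma adjusted p = 0.00774 over all detected probes).

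No gene of the remaining classes passed limma's threshold, and 0 had an unadjusted p under 0.05. These were the SLC22 organic anion carriers Slc22a7 (-0.08) and Slc22a9 (-0.04), the ABCA genes Abca15 (-0.18), Abca17 (-0.07) and Abca8a (0.16), and the sulfonylurea receptor gene Abcc9 (0.27). The array's annotation gives Slc22a19 as another name of its Slc22a9 probes, and the 2 names cannot be separated here. RefSeq lists Slc22a9 as another name of Slc22a21 too, and the array's symbol was kept. The array places the tested Slc22a9 probe on chromosome 19 and the Slc22a21 probe on chromosome 11. Abca8a was the most variable member, with 5.49, 7.56 and 9.02 as lowest, median and highest value in KO tissue, against 6.34, 7.24 and 7.83 in WT tissue. Its highest value was on KO array 1, where the adipocyte, fibroblast, macrophage and endothelial marker means were the highest too. Abcc9, a channel subunit of smooth muscle and pericytes, was lowest on KO array 6 (7.04), where the smooth muscle mean (9.58) was the lowest of all arrays and the other stromal and immune marker means were the lowest of the KO arrays. Among the 29 members that were not called, 17 differences were negative and 12 positive, from -0.48 to 0.34. The 95% interval lay within a 2-fold change for 28 of the 29, all but Abca8a. Some of these probes were near background, where the offset shrinks differences. Examples are Slc22a9 (detected on 4 KO and 2 WT arrays), Abca15 (5 and 5), Abcc6 (6 and 4) and Slc22a21 (6 and 6). For such probes a narrow interval does not bound the change in RNA.

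**Figure D3:**
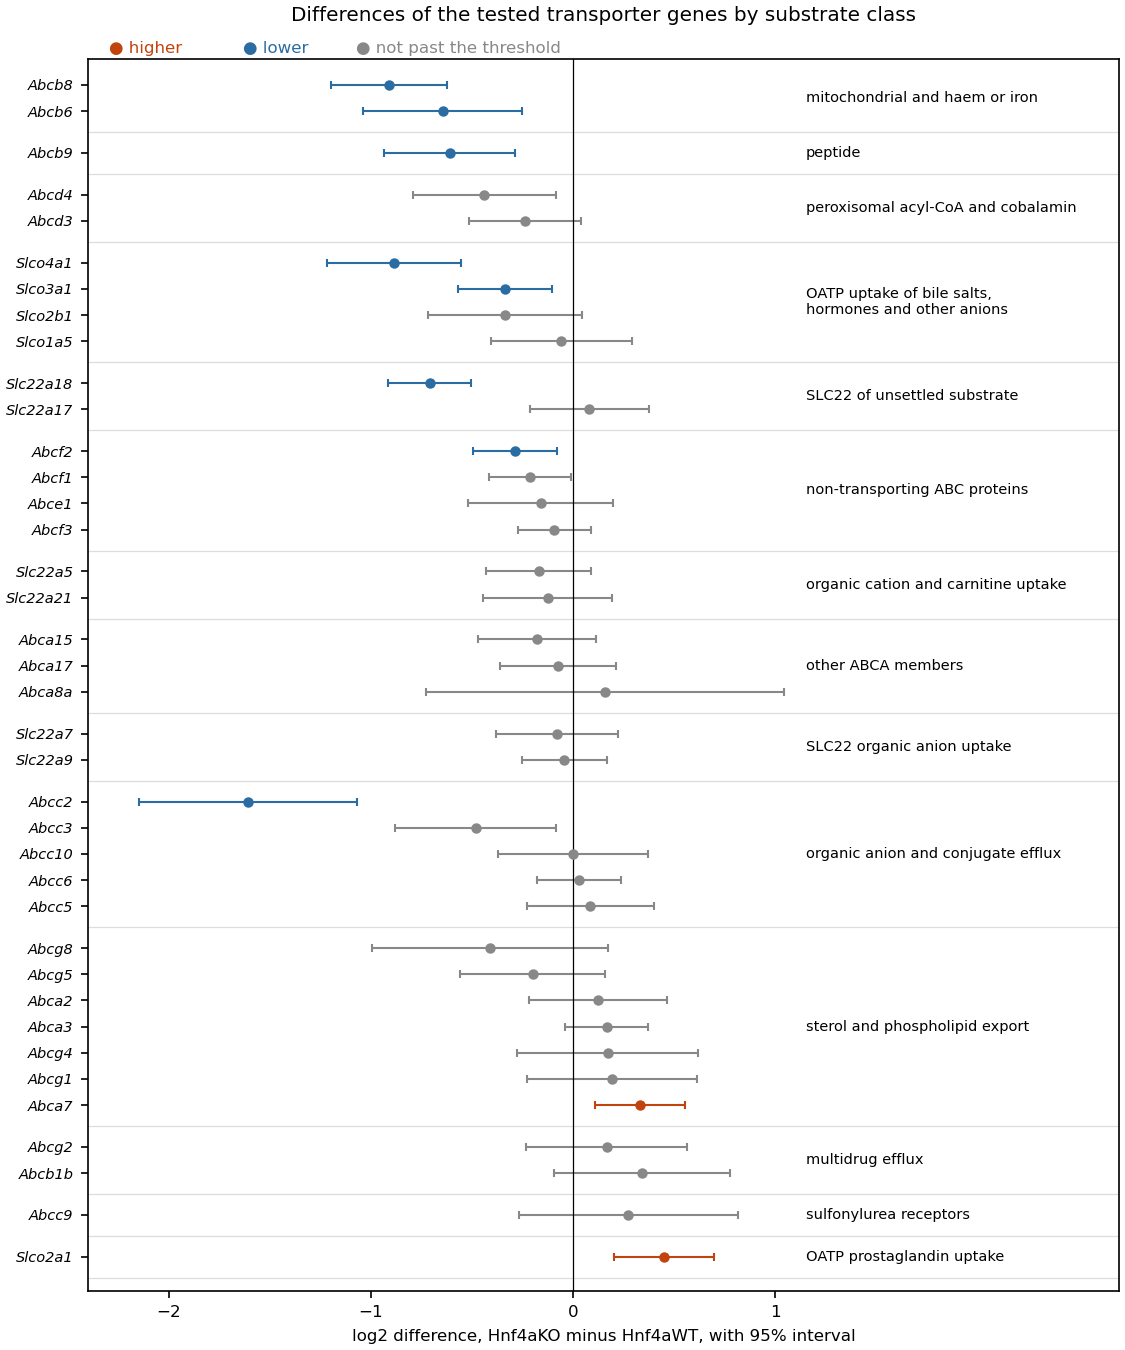
Log2 difference, KO minus WT (x axis), with its 95% interval for 38 tested transporter genes, grouped by substrate class and coloured by call (blue lower, orange higher, grey not past the threshold). Abcc2 at -1.61 lies apart from the other genes drawn, which range from -0.91 to 0.45.

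Several probes of a gene allowed a check within the array. For 12 tested genes more than 1 probe was detected, which gave 18 probes beside the brightest. The sign was that of the brightest probe for 17 of the 18, the exception being Abca15, and the call was the same for 9. Where Abcb8 and Abcb9 were called, all 3 of their other probes were called in the same direction. Differing calls came from Abca7, Abcd4, Abcf1, Abcf2, Slc22a18 and Slco3a1. The fit of every detected probe called 29.4% of the 13460 probes.

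**Figure D4:**
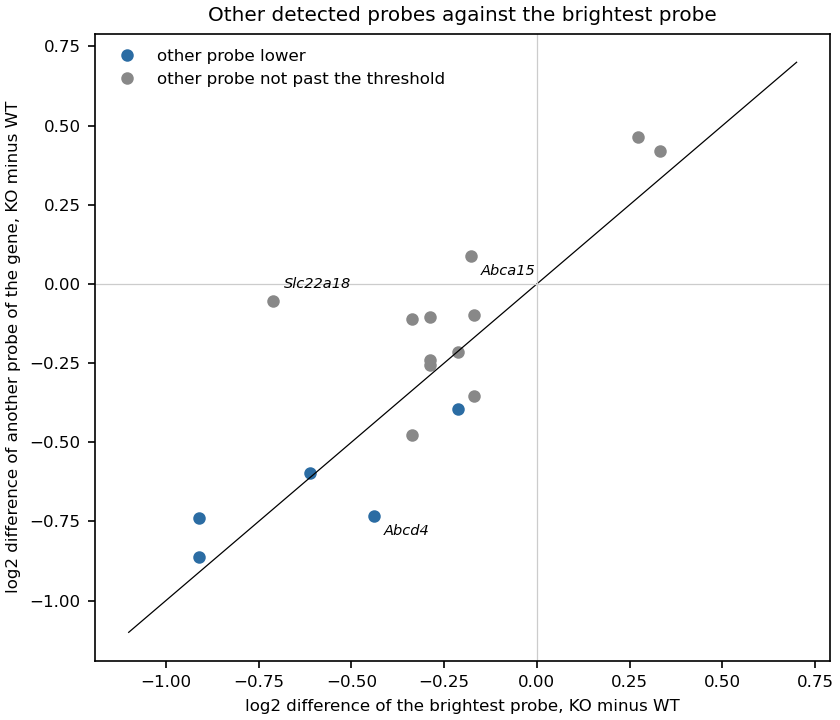
Log2 difference, KO minus WT, of each of 17 further detected probes (y axis) against that of the brightest probe of the same gene (x axis), with the line of equality; blue points are lower at an adjusted p under 0.05. The Abcb8 and Abcb9 probes lie near the line, while the dim second probe of Slc22a18 lies near 0 on the y axis.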

How the data were processed

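Per the labels' protocols, biotin-labelled cRNA was hybridised to Illumina arrays. Per the file headers, the deposited intensity is the mean signal of each probe, and no normalization between arrays was applied to it. The deposited detection p-value of each probe on each array moves, per the file headers and its steps, against 798 negative control beads. A deposited series table of quantile normalized intensities served as an alternative. The sources used here do not name the scanner software.

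Background was removed by limma 3.58.1 (R 4.3.3) with normexp, inferring the negative controls from the detection p and adding an offset of 16. Quantile normalization between arrays and a log2 transform followed. The offset shrinks differences of dim probes. Probes detected (p under 0.05) on at least 6 of 16 arrays were kept, and the brightest per gene was tested (lmFit and eBayes, genotype alone, Benjamini-Hochberg). The other probes of a gene come from a fit of all 13460 kept probes. Replicates were taken as separate mice, as the design text calls them. Array symbols were matched to RefSeq: 120 of 124 member probes carried a current symbol and 4 kept the array's own name. Classes and lists were written by hand, and the members and lists were chosen with earlier results of these data known. Tested members are named, apart from some genes that count in the totals but are not reported here, and of the other lists up to 3 called genes with the largest change, plus Rxrb, named after its value was seen. The procedure was tested on simulated data. The number of arrays limits the precision, and array correlations of 0.951 to 0.993 over all probes gave no duplicate.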

Additional observations from a re-analysis of the deposited data

Results flagged for a closer look

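In each genotype the values of 38 tested transporter genes were searched for an array whose gap to its neighbour exceeds Dixon's critical share of the group's range. Chance gives such a gap in about 1 of 20 groups, and 5 of 76 groups showed one. Abcb9 on KO array 3 read 8.25, the highest of its group, with the next at 7.634. Slc22a7 on KO array 1 was the lowest of its group at 6.778, against 7.269 for the next. Abcd4 on KO array 8 was the highest at 6.40, with the next at 6.13. Abcc9 on KO array 6 was the lowest at 7.036, with the next at 8.042. In WT tissue, Abcc10 on array 1 was the lowest at 6.879, with the next at 7.83. The 5 values lie on 5 different arrays.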

How the results depend on the processing

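The 28 alternatives, 16 of which leave out 1 array, gave 1111 values for the 40 genes. No called difference changed sign, while 22 values of 10 uncalled genes did. Of the called genes, 3 kept their calls under every alternative, Abcb8 and Slc22a18 among them, and 8 lost theirs under at least 1. The count of 9 lower genes was 4 on slide 1 alone and 4 on slide 2 alone, with 4 arrays per genotype, and 7 to 10 with 1 array left out. The count of 2 higher genes was 0 with 75th percentile scaling, 0 on slide 1 alone, 1 to 2 with 1 array left out, and 4 without the detection filter, which added Abca1 (0.29, detected on 1 KO array) and Abcc8 (0.24, on none). The cause of these changes in the counts was not tested. Leaving out KO arrays 1 and 6, chosen after seeing the data, gave 10 lower and 2 higher. Whether the replicate numbers pair the samples is not settled: the labels do not say so, the correlation of same-numbered deviations was over 0.1 for 6 of 8 numbers (-0.233 to 0.387 over all), and 4 of 8 KO arrays correlated best with their own number, a hint from the data. With the replicate block 10 genes were lower, Abcc3 added (adjusted p = 0.0350), and 2 higher. With slide as a block the counts were 9 and 2. Without KO array 8, on which Xist was detected, 9 were lower and 2 higher.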
